A study of Mus musculus with 12 samples.

Results

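The genes described here encode the subunits of voltage-gated sodium, calcium and potassium channels, of the other potassium channels and of the pacemaker (HCN) channels. They were taken by symbol from the table of unique molecular identifier (UMI) counts: every gene name that starts with Kcn, or with Cacna, Cacnb, Cacng, Hcn or Scn followed by a digit, without antisense and overlapping-transcript rows. The rule found 138 of 50508 gene models, and it used no measured value. Single cells of the longitudinal muscle and myenteric plexus, the gut layer with the myenteric neurons and glia, were sorted into wells of 12 plates. All cells came from adult C57BL/6 mice, carried the red Dclk1-tdTom label and came from mice given 3 mg tamoxifen at 8 or 9 weeks of age. The allele that drives the label is not described in the sources used here. Surface CD49b split the sorted cells into CD49b- cells, which the labels call neuronal, and CD49b+ cells, which they call glial. Mice stayed in homeostasis or were irradiated with 10.5 Gy 7 days after tamoxifen, and tissue of both arms was taken 10 days after tamoxifen, which was 3 days after the dose. The 2 gates and 2 treatments gave 4 groups of 3 plates. A plate pooled 2 mice, and every pool of mice gave 1 plate of either gate, under a shared replicate number. Homeostasis replicates 1 and 3 and irradiated replicate 1 received tamoxifen at 8 weeks, and the other pools at 9 weeks.

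Voltage-gated sodium and calcium channels are built around a single large pore-forming chain, to which beta, alpha2delta or gamma chains bind. Voltage-gated potassium channels assemble from separate pore-forming subunits and are joined by cytoplasmic or membrane-spanning auxiliary subunits. In myenteric neurons these channels carry action potentials, their recovery and the calcium entry that releases transmitter. Glia hold few voltage-gated sodium channels of the neuronal kind and are known for inward rectifier potassium channels, which clear potassium from around neurons.

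Of 1150 wells, 964 were retained, with 541729 to 746674 UMIs per CD49b- plate and 150561 to 243340 per CD49b+ plate. The labelled cell types were checked with marker genes. Of 12 neuron markers 11 were detected on CD49b- plates, with a summed level of 9176 to 10657 CPM, here UMIs scaled by the plate total alone, and Uchl1 was at 0 in all groups. All 10 glia markers were detected on CD49b+ plates, at 29592 to 40006 CPM, against 574 to 986 on CD49b- plates. Neuron markers summed to 168 to 224 CPM on homeostasis CD49b+ plates but reached 1939 CPM on irradiated CD49b+ plates. There, 4 wells had more neuron than glia marker UMIs (1 on replicate 1 and 3 on replicate 2), and 5 CD49b- wells had the reverse. Markers of 9 other cell types, among them smooth muscle, fibroblasts, macrophages and endothelium, summed to at most 354 CPM on any plate. The 9 stray wells were kept, and results that touch them are given with and without them. The plates carried 96 well barcodes, of which 95 occurred on every plate, so a barcode names a well position and not a cell shared by plates.

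Channel subunits were a small share of the RNA. They made up 0.191% to 0.235% of the UMIs on CD49b- plates and 0.0913% to 0.136% on CD49b+ plates, 9835 UMIs in all. Of the 138 members, 117 had at least 1 UMI, 78 were detected in both gates, 31 on CD49b- plates only and 8 on CD49b+ plates only. Levels of single genes are given as CPM after TMM scaling, which adjusts the plate totals. On this scale 1 UMI was worth 1.44 to 2.07 CPM on a CD49b- plate and 4.73 to 6.80 CPM on a CD49b+ plate, so low values on CD49b+ plates are coarse. Another 21 had no UMI. Enough counts for a test were present for 39 members. The 78 detected but not tested had 1 to 89 UMIs (median 13), and 58 of them had a larger share of the UMIs of CD49b- plates and 20 of those of CD49b+ plates. A member whose reads lie mostly in 1 gate passed this filter through that gate, so the counts of tested members describe those 39 genes and not the family.

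**Figure D1:**
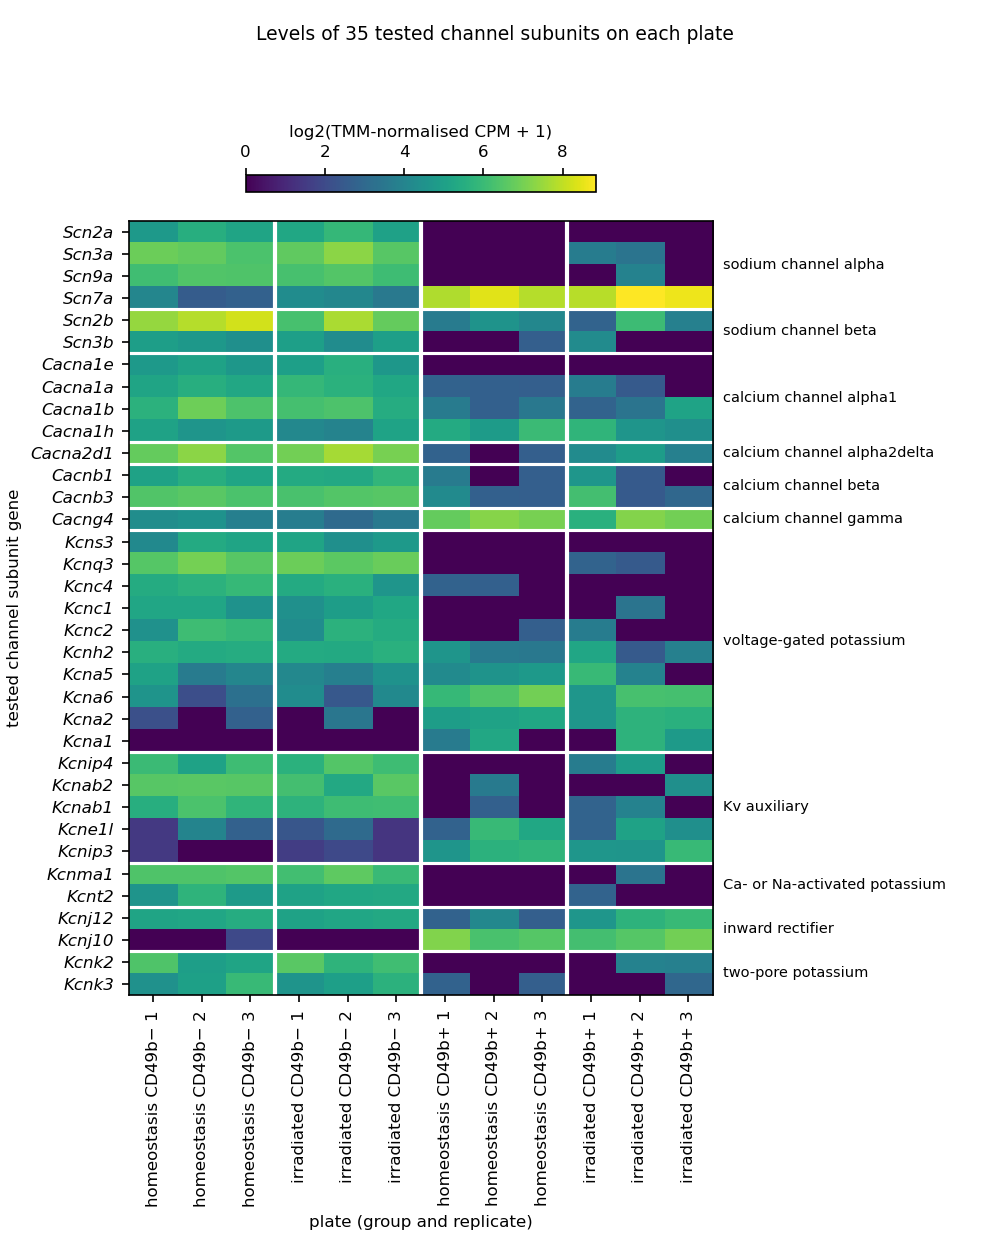
Level of 35 of the 39 tested channel subunits (rows, grouped by family) on the 12 plates (columns), as log2 of TMM-normalised CPM + 1 by colour; the darkest cells are values of 0. Colours compare plates within a gene, since counts are not scaled by gene length. Most genes are darker in the 6 CD49b+ columns. Scn7a, Kcnj10, Cacng4, Kcna6, Kcna2 and Kcnip3 are brighter there than on the CD49b- plates, and Kcna1 and Kcne1l are so on only some CD49b+ plates.

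The comparison of the gates asked which channel subunits the CD49b+ and CD49b- cells hold. Most tested members were lower on CD49b+ plates: 29 were lower, 8 were higher and 2 did not pass the test (edgeR, adjusted p below 0.05). Of all 8555 genes tested, 32.4% were lower and 29.6% higher. The members' median log2 fold change, CD49b+ minus CD49b-, was −3.62, or −3.32 with the 5 members that were at 0 in 1 gate set to a floor of 3 counts, and that of all tested genes was −0.13. With no filter on low counts, 51 of 117 members were lower and 10 higher, against 15% and 11.9% of 26315 genes. Without the stray wells, 37 members passed the filter, of which 28 were lower and 7 higher. With the same 39 members tested, a setting chosen after seeing the data, 28 were lower and 8 higher. A plate sum does not tell fewer wells with a transcript from fewer molecules per well, and shares of wells are given further on.

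The 8 higher members belonged to 5 families. They were the sodium channel gene Scn7a, the inward rectifier gene Kcnj10, the calcium channel gamma gene Cacng4, the Kv genes Kcna1, Kcna2 and Kcna6, and the auxiliary genes Kcnip3 and Kcne1l. Of the other tested members, Kcna5 and Cacna1h had a positive log2 fold change, and neither passed.

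**Figure D2:**
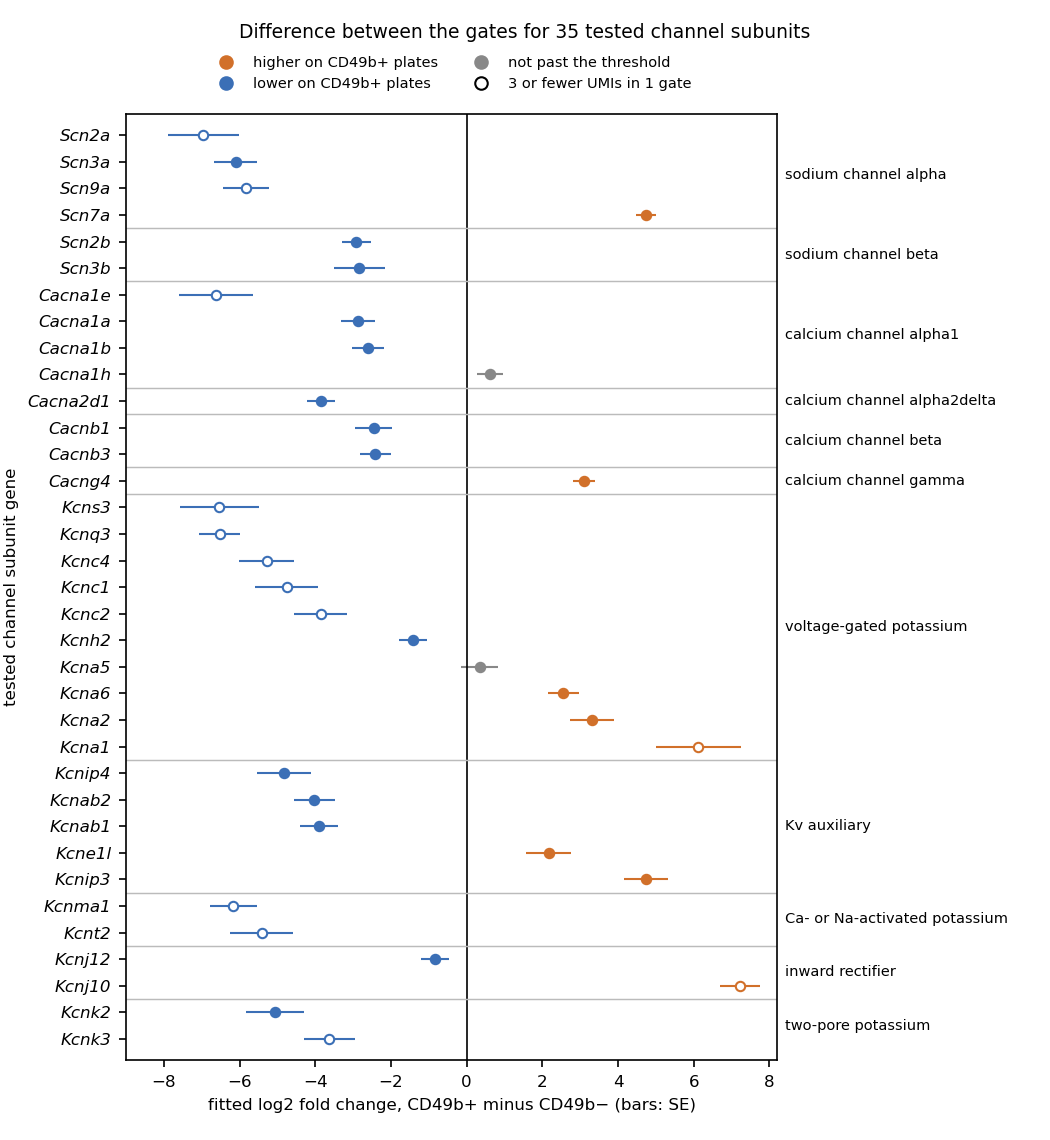
Fitted log2 fold change between the gates (CD49b+ minus CD49b-, averaged over treatments) with its SE for 35 of the 39 tested members, by family. Scn7a stands at 4.73 beside 3 sodium channel alpha genes below −5, and open circles mark genes with 3 or fewer UMIs in 1 gate, whose fitted value depends on the prior count.

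Among the pore-forming sodium channel genes, Scn7a stood apart from its relatives. It encodes a channel that is not opened by voltage like the others and is known as a sodium sensor of glia and other support cells. On homeostasis CD49b+ plates it stood at 219, 344 and 231 CPM, and on irradiated ones at 236, 459 and 395. On CD49b- plates it was at 15.8, 5.02 and 5.75 CPM in homeostasis and 18.7, 15.99 and 10.9 after irradiation. Every CD49b+ plate was thus above every CD49b- plate (log2 fold change 4.73, SE 0.266, edgeR adjusted p = 3.09e-13, higher in 6 of 6 pools). With 336 UMIs, Scn7a alone gave 26.9% of all channel subunit UMIs of the CD49b+ plates.

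The other tested sodium channel genes were lower there. Scn9a, a channel of peripheral neurons, was at 68.4, 85.3 and 83.4 CPM on homeostasis CD49b- plates and at 76.7, 87.2 and 67.1 after irradiation. On CD49b+ plates it had 3 UMIs, all on irradiated replicate 2 and 1 of them in a stray well (288 UMIs on CD49b- plates, ratio 26.9, exact 95% counting interval 9.12 to 131). Such ratios use the share of all UMIs, and their intervals cover counting error only. Scn2a, a channel of axons, had 145 UMIs on CD49b- plates and 0 on CD49b+ plates, at least 13.6-fold lower against a floor of 3 counts over the 6 plates. Scn3a, a related neuronal channel, had 400 UMIs against 4 (log2 fold change −6.10, SE 0.572, adjusted p = 6.70e-09). For Scn3a and Scn2a, 9.57% and 9.16% of the 31-base words of the annotated transcripts also occur in another gene, so a part of their reads could be split among relatives.

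These sodium channel genes are neighbours. On chromosome 2 (GRCm38, GENCODE vM21) Scn3a lies at 65457118 to 65567627 on the minus strand and Scn2a at 65620771 to 65767447 on the plus strand. Farther along, Scn9a lies at 66480080 to 66634962 and Scn7a at 66673425 to 66784914, both on the minus strand and 38.5 kb apart. Scn1a, 39.2 kb to the other side of Scn9a, had 8 UMIs on CD49b- and 3 on CD49b+ plates and was too low to test. As CD49b+ plates held fewer UMIs in all, Scn1a did not have a smaller share there. The neighbours Scn9a and Scn7a thus differed between the gates in opposite directions.

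**Figure D3:**
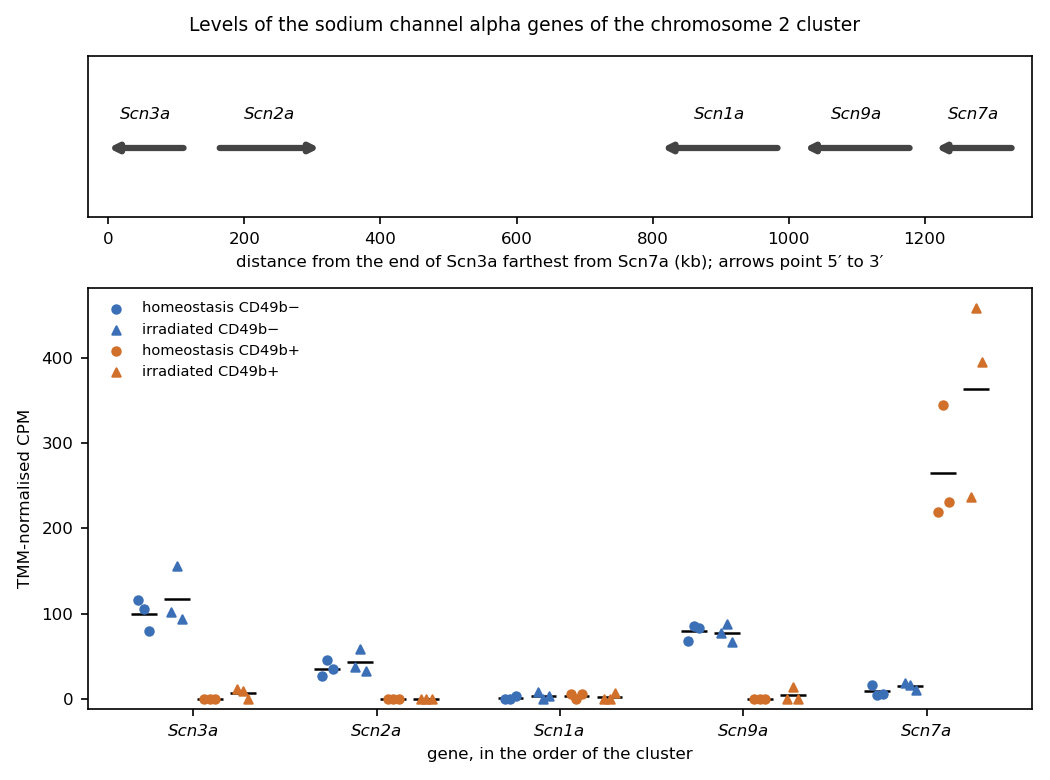
Above, the 5 sodium channel genes of the chromosome 2 cluster to scale, with distance in kb and arrows pointing 5′ to 3′; below, their TMM-normalised CPM on each plate (points) with the mean of 3 plates (lines). Scn7a reaches 219 to 459 CPM on CD49b+ plates, where Scn2a is at 0 on every plate, while Scn3a, Scn2a and Scn9a lie above 20 CPM on every CD49b- plate.

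The 200 bases before the annotated start of Scn7a, Scn9a and Scn2a are shown because these neighbours differed in opposite directions, together with those of Kcnj10, the gene with the largest difference toward CD49b+ cells. They are from RefSeq's GRCm38.p6 tables, 5′ to 3′ on the gene's own strand, at chr2:66784911-66785110 (minus) for Scn7a, chr2:66634963-66635162 (minus) for Scn9a, chr2:65620569-65620768 and chr2:65668486-65668685 (plus) for 2 starts of Scn2a, and chr1:172341010-172341209 (plus) for Kcnj10. Capitals mark matches to the motifs named below them.
Scn7a: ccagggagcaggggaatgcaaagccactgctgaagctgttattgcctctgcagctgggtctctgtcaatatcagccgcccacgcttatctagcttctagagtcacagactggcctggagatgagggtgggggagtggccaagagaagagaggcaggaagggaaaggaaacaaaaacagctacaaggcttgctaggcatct
Scn9a: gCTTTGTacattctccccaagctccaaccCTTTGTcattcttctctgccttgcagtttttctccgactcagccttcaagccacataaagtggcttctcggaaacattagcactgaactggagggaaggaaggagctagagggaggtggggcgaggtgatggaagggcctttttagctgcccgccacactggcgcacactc
Scn2a, first start: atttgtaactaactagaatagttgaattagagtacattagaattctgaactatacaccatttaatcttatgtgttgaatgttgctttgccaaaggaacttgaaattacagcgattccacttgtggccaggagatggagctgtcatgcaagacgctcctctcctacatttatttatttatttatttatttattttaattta
Scn2a, further start: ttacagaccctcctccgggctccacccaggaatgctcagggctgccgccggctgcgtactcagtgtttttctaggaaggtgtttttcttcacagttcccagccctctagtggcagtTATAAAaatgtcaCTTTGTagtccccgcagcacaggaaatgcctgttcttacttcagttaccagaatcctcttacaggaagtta
Kcnj10: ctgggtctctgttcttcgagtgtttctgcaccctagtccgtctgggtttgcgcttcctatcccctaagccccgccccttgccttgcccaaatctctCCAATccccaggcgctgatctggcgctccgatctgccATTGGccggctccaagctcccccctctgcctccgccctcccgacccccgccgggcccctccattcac
Both strands were searched for ACAAAG and ACAATG, core words bound by SOX factors, for TTCAGCACC, a part of the element bound by the neuronal gene repressor REST, and for TATAAA and CCAAT. Over all 32851 promoters of this length the shares with a match were 13.3% for ACAAAG, 8.58% for ACAATG, 0.237% for TTCAGCACC, 9.96% for TATAAA and 29.3% for CCAAT. Scn7a held none of the 5 words, Scn9a held ACAAAG at 2 places, 1 start of Scn2a held ACAAAG and TATAAA, and Kcnj10 held CCAAT at 2 places. Of the 8 promoters found for 6 of the 8 higher members, 1 held ACAAAG, and of 35 promoters found for 20 of the 29 lower members, 8 did. These are matches of letters, not sites. Promoters were found for 101 of the 138 members.

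The 3 tested sodium channel beta genes were all lower on CD49b+ plates. Scn2b encodes a chain that is linked to the pore-forming chain by a disulfide bond, and it had the most UMIs of all members on CD49b- plates. It stood at 172, 229 and 301 CPM on homeostasis CD49b- plates against 11.9, 22.2 and 16.1 on CD49b+ plates (log2 fold change −2.92, SE 0.378, adjusted p = 5.23e-07). After irradiation its levels were 76.7, 211 and 106 on CD49b- and 6.06, 66.2 and 13.6 on CD49b+ plates. Of its 26 UMIs on CD49b+ plates, 12 lay in stray wells, and without these wells the value was −3.67. For Scn3b, another beta chain, the fitted difference was −2.84 on the log2 scale (SE 0.673).

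Of 8 tested calcium channel genes 6 were lower, Cacng4 was higher and Cacna1h did not pass. Cacna1b and Cacna1a, the channels that feed transmitter release, had 277 UMIs against 13 and 160 against 6 (log2 fold changes −2.61, SE 0.411, and −2.88, SE 0.456). Cacna1e, the R-type channel, had 115 UMIs against 0, at least 10.8-fold lower. The low-voltage channel Cacna1h had 92 against 41 UMIs and did not pass the test (log2 fold change 0.62, SE 0.356, adjusted p = 0.135). Without irradiated CD49b- replicate 3 its value was 0.90 with an adjusted p of 0.0471. Cacna2d1, the alpha2delta chain that gabapentin binds, had 498 UMIs against 13 (log2 fold change −3.85, SE 0.376), and the 2 tested beta chains Cacnb3 and Cacnb1 had −2.41 (SE 0.407) and −2.46 (SE 0.492). Cacna2d2, Cacna2d3 and Cacnb2, too low to test, had 53, 11 and 47 UMIs against 2, 1 and 1.

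Cacng4 belongs to the gamma chains that also accompany AMPA-type glutamate receptors. On CD49b+ plates it was at 107, 150 and 129 CPM in homeostasis and 48.5, 147 and 122 after irradiation. CD49b- plates ran from 12.9 to 21.7 and from 7.27 to 12.4 CPM, below all CD49b+ plates (log2 fold change 3.11, SE 0.291, adjusted p = 2.82e-09). The gamma genes next to it by UMIs, Cacng2 and Cacng7, had 30 and 25 UMIs on CD49b- plates against 2 and 3, and Cacng5 had 5 against 8.

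Tested voltage-gated potassium genes differed in both directions. Kcnq3, a subunit of the slow M current that limits repeated firing, was at or near 0 on CD49b+ plates. It stood at 91.2, 125 and 92.0 CPM on homeostasis and 116, 96.0 and 112 on irradiated CD49b- plates. It was at 0 on 4 CD49b+ plates, and its 2 UMIs on the other plates lay in stray wells (385 against 2 UMIs, ratio 54.0, interval 14.8 to 447). Kcns3, a silent subunit that joins other Kv subunits, had 107 against 0, at least 10.0-fold lower. Kcnh2, of the ERG type, had 161 against 17 (log2 fold change −1.42, SE 0.373). The fast-closing Kcnc1, Kcnc2 and Kcnc4 had 112, 164 and 164 UMIs against 2, 3 and 2.

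Of the Shaker-type (Kcna) genes, Kcna1, Kcna2 and Kcna6 were higher on CD49b+ plates, Kcna5 did not pass, and Kcna4, too low to test, had 5 UMIs on CD49b- plates against 0. Kcna1, a channel of axons and their endings in neurons, had no UMI on the 6 CD49b- plates. On CD49b+ plates it had 2, 7 and 0 UMIs in homeostasis and 0, 11 and 4 after irradiation. It was thus at least 28.5-fold higher in sum, with UMIs in 4 of 6 pools. Kcna2 was detected on all 6 CD49b+ plates, at 24.2 to 52.0 CPM, and on 3 of 6 CD49b- plates, where it reached 10.2 CPM; the fitted difference was 3.31 on the log2 scale (SE 0.588, adjusted p = 3.84e-05). Kcna6 ran from 24.2 to 123.4 CPM on CD49b+ and from 3.35 to 22.8 on CD49b- plates (log2 fold change 2.55, SE 0.406), and is named here after its values were seen. Of the exon bases of Kcna6, 39.6% overlap Gm26673 on the opposite strand, and whether the counting used strand is not given in the sources used here. Kcna5, which lies 105 kb from Kcna1 on chromosome 6, did not pass the test (0.34, SE 0.488, adjusted p = 0.554). Its value was −0.48 without irradiated CD49b+ replicate 1.

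Of 5 tested auxiliary genes of potassium channels, the beta subunit genes Kcnab1 and Kcnab2 and the A-type partner Kcnip4 were lower, and Kcnip3 and Kcne1l were higher. Kcnab2 and Kcnab1 had 298 and 227 UMIs against 5 each (log2 fold changes −4.02, SE 0.534, and −3.89, SE 0.508). Kcnip4, which binds A-type channels, had 232 against 8, of which 6 lay in stray wells. Kcnip3, a related calcium sensor, had 5 UMIs on CD49b- plates and 41 on CD49b+ plates, with 23.6 to 61.2 CPM a plate (log2 change 4.73, SE 0.585, adjusted p = 2.57e-07). Kcne1l, a small membrane-spanning subunit named here after its values were seen, had 22 against 30 UMIs (2.17, SE 0.589, adjusted p = 0.00284). Its plates overlapped, at 1.56 to 15.1 CPM against 5.93 to 61.0. The untested Kcnab3, Kcnip1, Kcnrg, Kcne4 and Kcnip2 had 1 or 2 UMIs on CD49b- plates and 0 or 1 on CD49b+ plates, too few to give a direction.

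Kcnj10 had the largest fitted difference of the members. It encodes the inward rectifier by which glia take up potassium and lies on chromosome 1 at 172341210 to 172374085, plus strand. On CD49b+ plates it stood at 142, 77.7 and 91.2 CPM in homeostasis and at 72.7, 89.8 and 122 after irradiation. Its 2 UMIs on CD49b- plates were both on homeostasis replicate 3, in wells with 2 or more Nos1 UMIs and not in stray wells (104 against 2 UMIs, ratio 185, interval 50.04 to 1551). Kcnj12, another inward rectifier, was lower on CD49b+ plates only in 4 of 6 pools (log2 fold change −0.84, SE 0.363, adjusted p = 0.0491), and this call was lost under 16 of 19 settings tried, which include DESeq2, the pool as a block and the removal of stray wells. Kcnj5, which forms G-protein-gated channels and was too low to test, had 70 UMIs against 3, all 3 in stray wells.

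All 4 tested genes of the calcium-activated, sodium-activated and tandem-pore potassium channels were lower on CD49b+ plates. Kcnma1, the large-conductance channel opened by calcium and voltage, had 301 UMIs against 2, both in stray wells (ratio 42.2, interval 11.6 to 350). Kcnt2 and Kcnt1, opened by sodium, had 131 and 86 against 1 and 3. The leak channels Kcnk2, Kcnk3 and Kcnk10 had 216, 138 and 65 against 5, 3 and 1. In the same families, 4 genes without enough counts for the test had UMIs on CD49b+ plates alone, of which Kcnk7 and Kcnmb1 had 2 and 1. Kcnk5, a leak channel opened by alkaline conditions, had 4, 1 and 6 UMIs in homeostasis and 7, 5 and 2 after irradiation (at least 29.7-fold higher). Kcnn4, the intermediate-conductance calcium-activated channel, had 2, 3 and 9 and then 1, 2 and 3 UMIs (at least 23.8-fold higher). The HCN genes, which carry pacemaker current, were too low to test, with Hcn2 and Hcn3 at 57 UMIs each against 5 and 1.

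Shares of wells with a UMI are given for 4 of the called genes. The share was larger on CD49b- plates for Cacna1h (15.3% against 8.03%) and Kcna5 (10.2% against 5.28%), whose fitted differences were positive and did not pass. For Cacna1h and Kcna5 the wells were not thinned to equal depth, so these shares do not give a direction. Scn7a had a UMI in 198 of 436 CD49b+ wells (45.4%) and in 39 of 528 CD49b- wells (7.39%), although CD49b- wells were deeper (median 7243 against 2462 UMIs). By plate its share ran from 32.1% to 56.0% on CD49b+ plates and from 3.85% to 10.1% on CD49b- plates. With each well thinned to 1000 UMIs the shares were 21.1% and 0.568%. Kcnj10 was found in 20.9% of CD49b+ wells, 9.63% after thinning, and in 0.379% of CD49b- wells, 0.189% after thinning. In the other direction, Scn2b was found in 55.9% of CD49b- and 3.67% of CD49b+ wells, and after thinning in 15.9% and 1.61%. Kcnq3 was found in 48.1% and 0.459%, with 0 CD49b+ wells left once stray wells were taken out. For each gene the share in the gate with the lower value was not read as expression. Whether free RNA in the wells, cells of the other type or low expression gave it was not tested.

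Genes that act with these channels were given by a list of 38 partners. Of 34 detected, 16 were tested, 9 were lower and 2 higher on CD49b+ plates. Dpp6, a partner of A-type channels, had 677 UMIs against 5 (log2 fold change −5.22, SE 0.397). Lgi1, a secreted protein that acts at synapses and on potassium channels, had 449 against 5 (−4.84, SE 0.469). Fgf13, which binds sodium channels, had 1124 against 13 (−4.60, SE 0.329). The 2 higher genes were Lgi4, a secreted protein made by glia of nerves, with 43 UMIs against 2 on CD49b- plates (ratio 76.6, interval 19.97 to 653), and the calmodulin gene Calm3 (0.64, SE 0.174, adjusted p = 0.0027). Of the exon bases of Lgi4, 44.9% overlap Fxyd3 on the opposite strand, with the same limit as for Kcna6.

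Whether irradiation changed channel subunits was tested within each gate. On CD49b- plates none of the 39 tested members passed with edgeR or with DESeq2, beside 0.0468% of all genes. In edgeR 2 members had an unadjusted p below 0.05, beside 354 of all 8555 genes. The members' median log2 fold change, irradiated minus homeostasis, was 0.00, or 0.04 without the 2 members at 0 in an arm, and that of all genes was 0.00. Scn2b had the smallest p of the members: the levels given above had a mean of 234 ± 64.5 CPM (SD, n = 3) in homeostasis and 131 ± 70.5 after irradiation, and the groups overlapped (log2 fold change −0.82, SE 0.334, unadjusted p = 0.0221, edgeR adjusted p = 1). In Cacng4 the irradiated plates, at 12.4, 7.27 and 10.9 CPM, lay below the homeostasis plates, at 19.3, 21.7 and 12.9, a pattern of 6.34% of genes (6.45% in the other direction). Its value was −0.81 (SE 0.480, adjusted p = 1) and 0.38 with wells thinned to 1000 UMIs.

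On CD49b+ plates none of the 39 passed with edgeR or DESeq2, beside 0.713% of all genes (0.666% higher). In edgeR 6 members had an unadjusted p below 0.05, beside 910 of all 8555 genes. The members' median log2 fold change was 0.70 and that of all genes 0.09. Of the 39, 15 were at 0 in an arm, where a fitted value depends on the prior count. With 4 of these set to the floor and 11 too low for a fold left out, the median was 0.59. The summed level of neuron markers, 168 to 224 CPM in homeostasis and 179 to 1939 CPM after irradiation, moved with this comparison, and its part in the result was not tested. Kcnj12 had the smallest p. It stood at 5.93, 16.6 and 5.36 CPM in homeostasis and at 24.2, 52.0 and 61.2 after irradiation, without overlap (log2 fold change 2.26, SE 0.629, edgeR adjusted p = 0.110). This rests on 1, 3 and 1 UMIs against 4, 11 and 9. Stray wells held 2 of these, and without those wells the value was 2.25 with an adjusted p of 0.160. On CD49b- plates the same gene was at 33.2 to 43.1 CPM in both arms (log2 fold change −0.08, SE 0.338). The difference between the gates in this response did not pass (2.34, SE 0.723, edgeR adjusted p = 0.315).

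**Figure D4:**
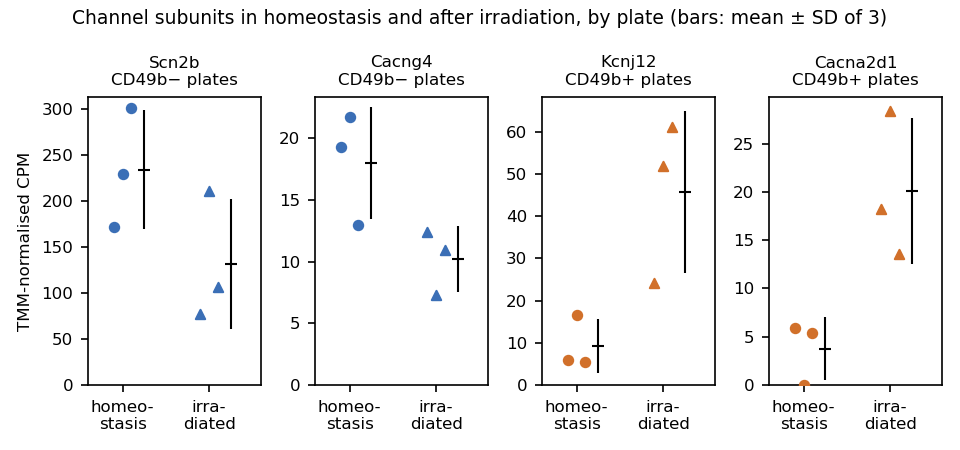
TMM-normalised CPM of 4 members on single plates in homeostasis (circles) and after irradiation (triangles), with mean ± SD of 3 plates; the gate is given above each panel. Kcnj12 and Cacna2d1 on CD49b+ plates and Cacng4 on CD49b- plates do not overlap between the arms, Scn2b does, and none passed the test over all genes.

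Kcnip4, also among the 3 members with the smallest p, had no UMI on the homeostasis plates. After irradiation it had 2, 6 and 0 UMIs (edgeR adjusted p = 0.245). Stray wells held 6 of these 8, and without those wells the adjusted p was 0.696. Cacna2d1 was the other member without overlap, at 5.93, 0 and 5.36 CPM against 18.2, 28.4 and 13.6 (2.39, SE 0.950, edgeR adjusted p = 0.328). Higher values without overlap were found for 6.72% of tested genes. Lower values without overlap were found for 4.21% of genes and 0 members. For the difference between the gates in the irradiation response, no member passed, beside 0.0117% of all genes. In edgeR 4 members had an unadjusted p below 0.05, beside 649 of all 8555 genes. None of the 16 tested partner genes passed in either gate. With only 3 plates a group and these depths, a change that was not called is not shown to be absent.

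Channel subunits also differed among the CD49b- cells. These were divided by Nos1, the nitric oxide synthase gene of inhibitory myenteric neurons, which is no channel gene. Of 528 wells, 254 had 2 or more Nos1 UMIs and 189 had none, and 85 wells with 1 UMI were left out. Median depth was 7740 UMIs in the wells with Nos1 and 6613 in those without. UMIs were summed per plate and class and compared with the plate as a block. Known markers of the main myenteric neuron types differed between these classes. A UMI of the cholinergic genes Chat or Slc18a3 was found in 172 of the 189 wells without Nos1 and in 85 of the 254 with it. Slc18a3, the vesicular acetylcholine transporter, was at 111 ± 29.7 CPM (SD, n = 6 plates) with and 617 ± 56.3 without Nos1, and Vip, a peptide of inhibitory neurons, was at 2019 ± 846 and 266 ± 322.

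Of 23 members tested here, 3 were higher and 5 lower in the wells with Nos1 (edgeR). Of all 5208 genes tested, 6.85% were higher and 5.17% lower. Kcnab1, a beta subunit that speeds the closing of Shaker-type channels, had the largest difference. In the wells with Nos1 it stood at 110, 114 and 105 CPM on homeostasis plates and at 79.6, 127 and 117 on irradiated plates. In the wells without Nos1 it was at 15.0, 10.5 and 17.6 and at 8.62, 18.3 and 20.5 CPM. The classes did not overlap on any plate (log2 fold change 2.75, SE 0.262, adjusted p = 3.55e-09, 194 against 19 UMIs), and the call held under all 12 settings that could be fitted. The related Kcnab2 was at 124 ± 32.7 against 40.8 ± 27.5 CPM (1.498, SE 0.235, adjusted p = 2.19e-05). The sodium-activated channel Kcnt2 was at 52.3 ± 10.1 against 19.7 ± 11.8 CPM (1.31, SE 0.324, adjusted p = 0.0053). Both were higher in 6 of 6 plates. Kcnt2 did not pass with DESeq2 (adjusted p = 0.0708).

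**Figure D5:**
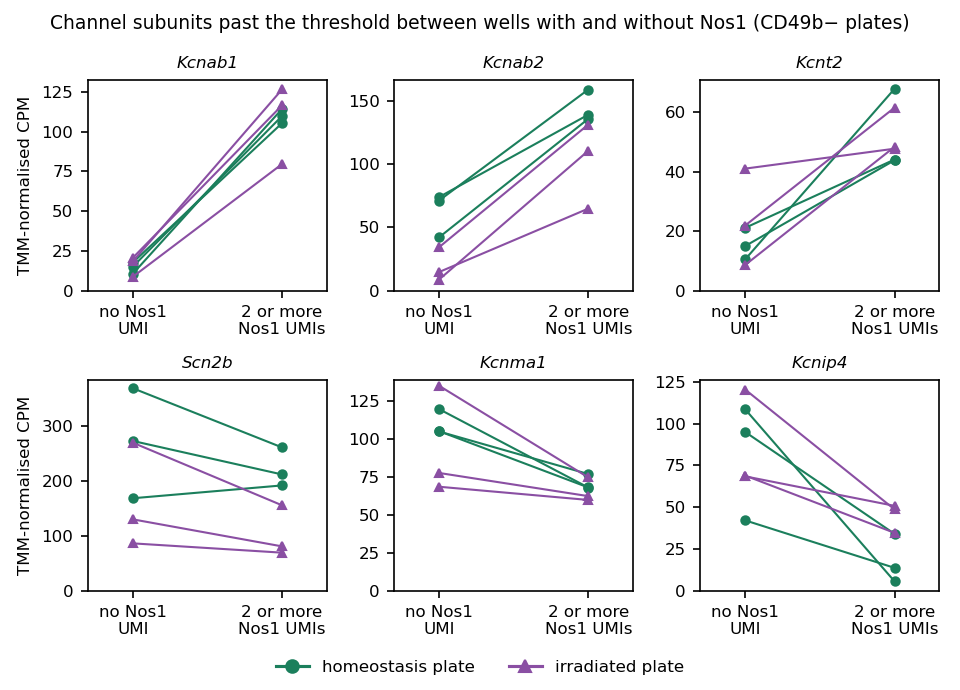
TMM-normalised CPM of 6 members that differed between CD49b- wells without a Nos1 UMI (left of each panel) and with 2 or more (right); each line joins the 2 classes of 1 plate. Kcnab1 lies between 79.6 and 127 CPM with Nos1 and at or below 20.5 without it on all 6 plates, and Scn2b falls in 5 of 6.

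Lower members included Kcnip4, Kcnma1 and Scn2b. Kcnip4 was at 31.2 ± 18.3 CPM with and 84.0 ± 29.3 without Nos1 (log2 fold change −1.38, SE 0.276, adjusted p = 0.000576). Kcnma1 had −0.60 (SE 0.193) and Scn2b −0.44 (SE 0.141), with adjusted p of 0.0406 and 0.0386, while Kcnq3 did not pass (0.43, SE 0.185, adjusted p = 0.162). With DESeq2 the adjusted p of Kcnma1 and Scn2b was 0.423 and 0.437, and each lost its call without homeostasis replicate 2 or 3 or irradiated replicate 2. Kcnma1 also lost it without homeostasis replicate 1, and Scn2b without irradiated replicate 3. Over all alternative settings that could be fitted, with those just named included, Kcnma1 kept its call in 4 of 12 and Scn2b in 3 of 13. In another setting, wells under 3000 UMIs were left out, the others were thinned to 3000 UMIs and the same genes were tested. There Kcnip4 had a log2 fold change of −1.12 and an edgeR adjusted p of 0.0754. The neuron sodium channel genes Scn3a, Scn9a and Scn2a did not pass, with log2 fold changes from −0.22 to 0.09.

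With no filter on low counts a further 4 members were higher and 3 lower (2.11% and 1.53% of 23527 genes were called), named here after their values were seen. Kcnj5 had 62 UMIs in the wells with Nos1 and 4 in those without (log2 fold change 3.22, SE 0.546, adjusted p = 3.36e-07). The low-voltage calcium channel Cacna1g had 35 against 3, the silent subunit Kcng4 22 against 0 and the delayed rectifier Kcnb2 41 against 8. On the other side were Kcnc4 with 36 against 74, Cacna1e with 31 against 57 and the leak channel Kcnk1 with 7 against 23. Under this setting Kcnma1 and Scn2b did not pass. Of 13 partner genes tested between the classes, 3 were higher and 1 lower. Ank2, which anchors channels to the cytoskeleton, was at 835 ± 107 against 303 ± 54.5 CPM (1.43, SE 0.0963), Akap5, a kinase anchor, had 1.18 (SE 0.323) and Dpp6 0.44 (SE 0.138). Lgi1 had −0.78 (SE 0.202).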

How the data were processed

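Per the labels' protocols, single cells were lysed and reverse transcribed in plate wells and sequenced after Nextera XT preparation. STAR 2.5.3a and featureCounts 1.5.3 are named in the submitters' processing notes, with the builds GRCm38 and GRCh38, whose roles are not given in the sources used here. The deposited table holds UMI counts per gene and well, which the authors did not normalise. Wells with at least 1000 UMIs, at least 500 genes and under 20% mitochondrial UMIs were retained, and counts were summed per plate. No doublet caller was run. Totals were 150561 to 746674 UMIs per plate, and counting error limits genes with few UMIs.

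Sums were tested with edgeR 4.0.16 (quasi-likelihood test, TMM scaling, filterByExpr, 4 group means, Benjamini-Hochberg adjustment over 8555 genes, threshold 0.05), in R 4.3.3. The gate contrast averaged both treatments, irradiation was tested in each gate, and the interaction compared both responses. Classes by Nos1 used the plate as a block and 5208 genes. CPM of single genes are TMM-scaled, summed marker levels are scaled by the plate total without TMM, and SDs are over plates. Plates of a group are separate pools of mice. Plates of both gates from a pool share their mice, per the labels. Correlations of their deviations from the group means ran from −0.03 to 0.184.

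The members, the partner and marker lists and the division by Nos1 were chosen with earlier results of these data known. Named members were the 3 with the most UMIs in each family, the 5 largest differences between the gates in each direction, those called between the classes, and the 3 with the smallest p for irradiation. Other tested members, and those from the fit with no filter, were named after their values were seen. Some members are counted in the totals but not reported here. A well was called stray where markers of the other gate's cell type outnumbered its own. Ratios of low genes carry exact 95% intervals and bounds use a floor of 3 counts over a group's plates, and both cover counting error only. Alternatives were DESeq2 1.42.0, no low-count filter, stricter wells (2000 UMIs, 1000 genes, 10% mitochondrial), thinned wells, removal of stray wells, the pool as a block, the run set as a term and removal of each plate. Tests on fixed genes after thinning or removal of stray wells were chosen after seeing the data. Run sets were read from plate numbers, and only the set with replicate 1 holds both treatments. Positions are GRCm38 with GENCODE vM21.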

Additional observations from a re-analysis of the deposited data

How the results depend on the processing

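Of the 39 members tested between the gates, 394 of 405 values with a plate left out and 265 of 273 values under other settings kept their direction and their side of the threshold; Kcnj12 gave 16 of the others. Kcna5 was −0.48 without irradiated CD49b+ replicate 1 and at most 0.57 without any other plate. Leaving out plates moved the members called higher between 6 and 10 and lower between 19 (without irradiated CD49b- replicate 3) and 37, as 27 to 53 members passed the filter, and the genes called between 4317 and 6248. With wells thinned to 1000 UMIs, 3 members were tested, 2 higher and 1 lower, with 1571 genes called. With these wells and the genes of the main filter, 39 members were tested, 8 higher and 27 lower, with 3646 genes called. No low-count filter gave 51 lower members, and moved the median of all genes by −0.13.

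With the pool as a replicate block 8 members were higher and 28 lower, 5105 genes were called between the gates, and the interaction had 0 genes. For 1 of 6 pools the deviations did not correlate positively. Kcnj12 was the member that lost its call (adjusted p = 0.0748).

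For irradiation of CD49b- cells 4 genes were called, 45 with no filter, 0 with thinned wells (both gene sets), and 1 (without irradiated CD49b- replicate 1) to 8 (without irradiated CD49b+ replicate 1) with a plate left out. Cacng4 was 0.35 and 0.38 with thinned wells. For CD49b+ cells 61 genes were called, 146 with no filter, 23 and 28 with thinned wells, 24 and 25 without stray wells, 30 with the run set as a term, and 4 (without homeostasis CD49b+ replicate 3) to 156 (without irradiated CD49b+ replicate 3) with a plate left out. The interaction called 1 gene, 7 with DESeq2, 67 with no filter, 5 with thinned wells on the fixed genes, and 0 to 87 (without irradiated CD49b+ replicate 3) with a plate left out. No member was called in these 3 comparisons under the settings listed. The Scn2b interaction was 1.72 (adjusted p = 0.682) and 0.13 without stray wells.

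Between the Nos1 classes 626 genes were called, 269 and 402 with wells thinned to 3000 UMIs and 331 with DESeq2. Higher members were 7 with no filter and 0 with thinned wells, where 4 members were tested. On the genes of the main filter, thinned wells gave 3 higher members. Lower members were 3 with 1 or more Nos1 UMIs, 3 with no replicate block, 2 with DESeq2, 0 with thinned wells (both gene sets) and 2 to 5 with a plate left out. The causes of these shifts were not tested, apart from the smaller gene sets.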
